A study of Acipenser ruthenus with 35 samples.

Results

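The vegetal side of the advanced vitellogenic oocyte of the sterlet, Acipenser ruthenus, was examined at its last step, from the vegetal section D to the extremely vegetal section E. Single oocytes were oriented along the animal-vegetal (A-V) axis, cut on a cryostat and divided into 5 consecutive sections with the same number of slices each, named A (extremely animal), B, C, D and E. Every section was sequenced as its own library (TOMO-Seq) after removal of ribosomal RNA. The 6 libraries compared here, out of 35 in all, are those labelled as section D and section E of big oocytes 1, 2 and 3, whose diameters were 2100, 1920 and 2010 µm. D and E of an oocyte come from the same cell and were compared within it. The other libraries of big oocytes (A, B and C of the same oocytes, and A and B of oocyte 11) entered the same fit, and the 8 D and E libraries of small, early vitellogenic oocytes 5, 6, 7 and 8 (1320 to 1500 µm) served as a second stage. The oocytes were untreated. All big oocytes came from 1 female and all small oocytes from another, so a difference of stage cannot be told apart from one of female, and libraries of small oocytes were also made from less RNA. Replicate error is therefore the spread between oocytes of 1 female.

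During oogenesis of frogs and fishes, particular maternal RNAs are carried to and anchored at the vegetal cortex. The best known of them belong to the germ plasm, the cytoplasm inherited by the future germ cells, or encode factors that pattern the endoderm and the dorsal axis. In the frog Xenopus laevis an early pathway brings germ plasm RNAs to the vegetal cortex with the mitochondrial cloud, and a later pathway carries other RNAs along microtubules. Section E is the cap that includes the vegetal pole, and section D is the slab next to it, which meets the cortex only at its rim.

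The depth of the 6 libraries was uneven in a way that differed between oocytes. Section D of oocytes 1, 2 and 3 held 4544358, 11348306 and 4330609 counts, and section E held 4136796, 3401637 and 10939830, so E was the shallower library in oocytes 1 and 2 and the deeper one in oocyte 3. Across transcripts, D libraries correlated with each other at 0.955 to 0.967 and E libraries at 0.944 to 0.965. D and E libraries correlated at 0.939 to 0.959 within an oocyte and at 0.923 to 0.976 between oocytes, ranges that overlap those of libraries of the same section. Levels are given as normalised counts, the count divided by the size factor of the library, and a difference E minus D is the log2 of the level in E over that in D. Because libraries are scaled to the median transcript, such values describe the composition of the RNA of a section and not its amount, and less RNA of a kind in a section cannot be told apart from more of the rest.

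The marker dnd1 (TRINITY_GG_79323_c2_g1_i2_1) encodes Dead end 1, an RNA-binding protein required for the survival and migration of primordial germ cells in zebrafish and Xenopus, and its RNA is vegetal in Xenopus oocytes. It is 1 of the 3 transcripts of the table to which the primer list of the study gives a gene name, so its primer pair is shown here as the sequence that identifies it, 5′ to 3′ and without capitals because no stretch of it is singled out:
dnd1 forward primer: ggactcagaaaatggggatctccctgg
dnd1 reverse primer: aaacctcacagccagaggaaggggg

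The level of dnd1 in section D was 1943, 2816 and 1914 normalised counts in oocytes 1, 2 and 3. In section E it was 3834, 4450 and 4050 normalised counts. The lowest E value lay above the highest D value, and each oocyte rose from D to E. The transcript was 1.89-fold higher in E than in D (log2 0.92 ± 0.13, SE, 95% interval 0.64 to 1.19, n = 3 oocytes, edgeR quasi-likelihood test with Benjamini-Hochberg adjustment over all transcripts tested, adjusted p = 0.000282). The preceding step, from C to D, was as clear: section C held 756.8, 1310 and 1006 normalised counts, and D minus C was 1.14 ± 0.13 (SE, adjusted p = 9.06e-05). Of the scaled total of dnd1, the sum of its normalised counts over the 5 sections, E made up 52.6%, D 28.5% and C 13.1%. Each section enters such a total after scaling. Shares of a scaled total therefore compare levels between sections and do not give the part of the RNA of the oocyte in each. Samples had been selected for library preparation by continuous gradients of marker transcripts, so a gradient of a marker is no independent evidence. The animal markers exd2, which encodes an exonuclease, and slc44a3, which encodes a choline transporter-like protein, did not pass the test between D and E. Their E minus D values were -0.00 ± 0.48 (SE, adjusted p = 1) and 0.54 ± 0.37 (SE, adjusted p = 0.391). Section A held 92.8% and 81.0% of their scaled totals.

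**Figure D1:**
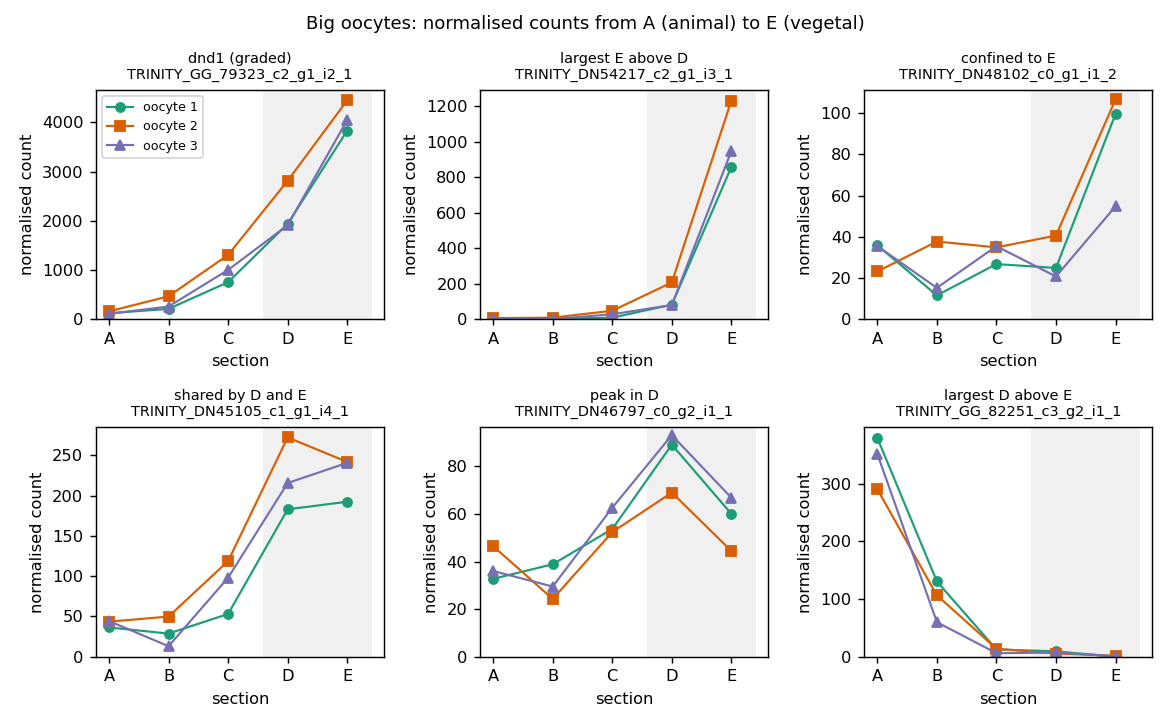
Normalised counts (y axis, linear from 0) in sections A to E (x axis) of big oocytes 1, 2 and 3, each line being 1 oocyte, for 6 transcripts; D and E are shaded. dnd1 climbs through D to E, with 1914 to 2816 in D and 3834 to 4450 in E. TRINITY_DN54217_c2_g1_i3_1 has 86.2% of its scaled total in E and 10.6% in D. TRINITY_DN45105_c1_g1_i4_1 has like values in D and E, and TRINITY_DN46797_c0_g2_i1_1 has its highest value in D. TRINITY_GG_82251_c3_g2_i1_1 is an animal transcript that is nearly absent from E.

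Over all transcripts, the step from D to E was lopsided in its number of calls, but not in the same direction at every abundance. Of 32291 transcripts tested, 4116 (12.7%) were higher in E and 1802 (5.58%) were higher in D at an adjusted p below 0.1 (edgeR quasi-likelihood test), the threshold used by the study. The transcripts higher in E had a median fold of 1.71 and those higher in D a median fold of 1.28. Of the transcripts higher in E, 2792 differed by more than 1.5-fold, 1340 by more than 2-fold and 59 by more than 4-fold. The corresponding numbers for D were 286, 97 and 18. The median log2 ratio of E to D of the transcripts called higher in E was 0.82, 0.71 and 0.71 in oocytes 1, 2 and 3. The balance of calls changed with abundance. Of 16142 transcripts with a scaled total under 200, 9.07% were higher in E and 1.02% higher in D. Of 16149 with a total of at least 200, 16.4% were higher in E and 10.1% higher in D. Of the 3351 transcripts with the highest totals, 17.7% were higher in E and 27.1% higher in D, so the excess of calls was toward D there. Calls higher in D had the smaller median fold, and small folds pass the threshold less readily at low counts. The part of this in the change with abundance was not tested, and the split was made with median-of-ratios scaling only. The number of calls in each direction also depends on how the libraries are scaled. Calls higher in E made up 69.6% of all calls with median-of-ratios scaling, 57.7% with TMM scaling and 43.2% with scaling by library totals, while the median E minus D of all transcripts moved from 0.03 to -0.02 and -0.08. The number above 2-fold was 1340 for E with median-of-ratios scaling, 1179 with TMM and 981 with library totals, against 97, 122 and 184 for D.

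The calls held in the oocyte that was not used to make them. When oocyte 1, 2 or 3 was left out of the fit, E lay above D in the left-out oocyte for 95.5%, 95.4% and 96.5% of the transcripts called higher in E from the others (3073, 2912 and 2226 transcripts), where 52.5%, 53.2% and 54.7% of all tested transcripts lay above. For transcripts called higher in D the shares were 93.0%, 88.9% and 87.3% (of 1058, 1163 and 669), against 47.4%, 46.7% and 45.2% of all. Without oocyte 3, whose E library was the deepest, the number higher in E was 2226 and the number higher in D was 669.

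The transcripts that differ between D and E were sorted by their gradient along the axis. Vegetal transcripts were defined by the mean of D and E minus the mean of A and B, a contrast in which D and E have the same weight, and 8906 of the 32291 (27.6%) were vegetal. Of the transcripts higher in E, 3349 (81.4%) were vegetal, 184 were animal and 583 had no gradient past the threshold. Of the transcripts higher in D, 1204 (66.8%) were animal by the same contrast, against 8328 (25.8%) of all transcripts. Another 153 were vegetal and 445 had no such gradient. The contrast contains E, so a rise or fall in E alone moves a transcript toward the vegetal or the animal side. These shares are therefore partly set by it and do not test where the calls lie on the axis.

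Compared with the other steps of big oocytes, the 2 ends of the axis held most of the calls. Between D and E 18.3% of transcripts passed the threshold, between A and B 17.3%, between B and C 9.56% and between C and D 8.92%. From C to D, 2163 transcripts (6.7%) rose and 716 (2.22%) fell, from B to C 1903 (5.89%) rose and 1184 (3.67%) fell, and from A to B 1982 (6.14%) rose and 3605 (11.2%) fell. The step from A to B also had the libraries of oocyte 11, so it rested on more oocytes than the others, and depth was uneven. Neighbouring steps share a section, so these counts are set side by side only. They use median-of-ratios scaling, and the balance of calls from C to D and from D to E turned with library totals. A measure that does not rest on calls gave another order. After all libraries were thinned to 2416356 counts, the SD of the log2 ratio over 15625 transcripts was 0.469 ± 0.029 from D to E (SD, n = 3 oocytes), 0.439 ± 0.029 from C to D, 0.511 ± 0.055 from B to C and 0.539 ± 0.047 from A to B. The spread from D to E was larger than that from C to D in 3 of 3 oocytes (two-sided exact sign-flip permutation test, p = 0.25, the smallest that 3 oocytes allow), smaller than that from A to B in 3 of 3 (p = 0.25) and larger than that from B to C in 1 of 3 (p = 0.5).

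**Figure D2:**
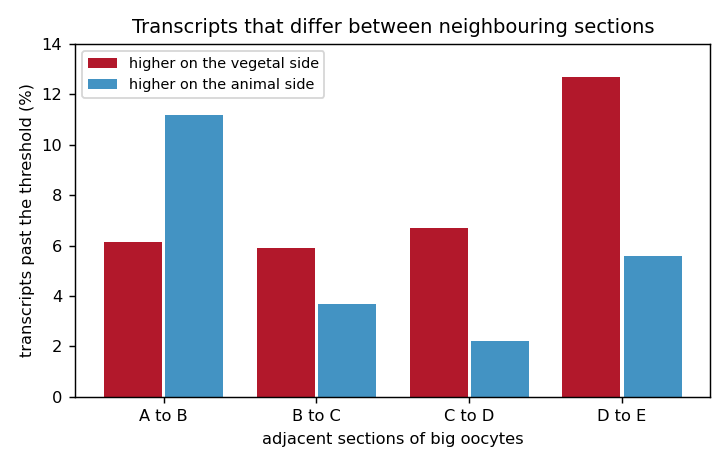
Percent of 32291 tested transcripts (y axis) that passed an adjusted p of 0.1 between neighbouring sections of big oocytes (x axis), drawn separately for transcripts higher on the vegetal and on the animal side of each step. With median-of-ratios scaling the D to E step has 12.7% higher on the vegetal side and 5.58% on the animal side. The A to B step has the larger share on the animal side, with 6.14% and 11.2%. Scaled by library totals, the D to E step had 3130 transcripts higher in E and 4114 higher in D. Only the A to B step has both of its sections from oocyte 11 as well.

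The largest rise from D to E, among transcripts with a scaled total of at least 200 that went the same way in all 3 oocytes, was that of TRINITY_DN54217_c2_g1_i3_1. The files do not pair this or other assembly identifiers with gene names. It had 83.1, 207.8 and 80.8 normalised counts in D of oocytes 1, 2 and 3 and 857.7, 1231 and 947.5 in E. The groups were far apart, and E exceeded D 8.56-fold (log2 3.10 ± 0.19, SE, adjusted p = 2.73e-07). Next came TRINITY_DN54716_c0_g1_i2_1, with 237.5, 555.5 and 284.1 normalised counts in D and 1818, 2382 and 1984 in E (6.11-fold, log2 2.61 ± 0.21, SE, adjusted p = 3.47e-05). Section E held 86.2% and 82.1% of their scaled totals. Even these transcripts were not restricted to E, because both rose from C to D as well, 4.91-fold and 4.85-fold, and oocyte 2 had the highest D value of both.

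A single transcript, TRINITY_GG_104613_c0_g1_i1_1, singled out after its values were seen, was found in E and nowhere else. Its counts were 50, 51 and 174 in E of oocytes 1, 2 and 3 and 0 in every A, B, C and D library of big oocytes, and the small oocytes had 0 counts as well. The normalised levels in E were 68.2, 90.6 and 90.8, close to each other although the count of oocyte 3 was the highest. Against the limit of 3 counts over the D libraries together that a count of 0 allows, E was at least 107.7-fold higher than D (adjusted p = 6.59e-08). The contrast that defines vegetal transcripts has no usable estimate when A, B and D are at 0, so this transcript is not among the 8906. It was also the only one with at least 30 counts in E and 0 in D when the 6 libraries were thinned to 3401637 counts, at which depth 22893 transcripts reached 30 counts in E. The reverse, at least 30 counts in D and 0 in E, was found for 0 of the 22591 transcripts that reached 30 counts in D, a count without a test. With a limit of 10 counts the numbers were 25 for E and 16 for D. Presence and absence thus separated very few transcripts between D and E at this depth, and the 2 sections differed in level.

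Vegetal transcripts were then sorted by their last 2 steps, D minus C and E minus D. Of the 8906, 1347 (15.1%) rose at both steps past the threshold, 2001 (22.5%) rose from D to E with no call from C to D, 753 (8.45%) rose from C to D with no call from D to E, and 4650 (52.2%) passed neither test, although D and E together lay above A and B. Another 149 fell from D to E with no call from C to D, 4 rose from C to D and fell from D to E, 1 fell from C to D and rose to E, and 1 fell from C to D with no call to E. Missing a call does not show that a step is absent. The ends of the range were therefore defined with intervals. A transcript was called confined to E when it rose at least 2-fold from D to E past the threshold and the upper bound of the 90% interval of D minus C was under 1.5-fold. It was called shared by D and E when it rose from C to D past the threshold and the 90% interval of E minus D lay within 1.5-fold either way. Graded transcripts rose past the threshold at both steps, and transcripts with a peak in D were past the threshold above C and above E. These definitions use the values of D and E, so the levels that follow describe the classes and do not test them.

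**Figure D3:**
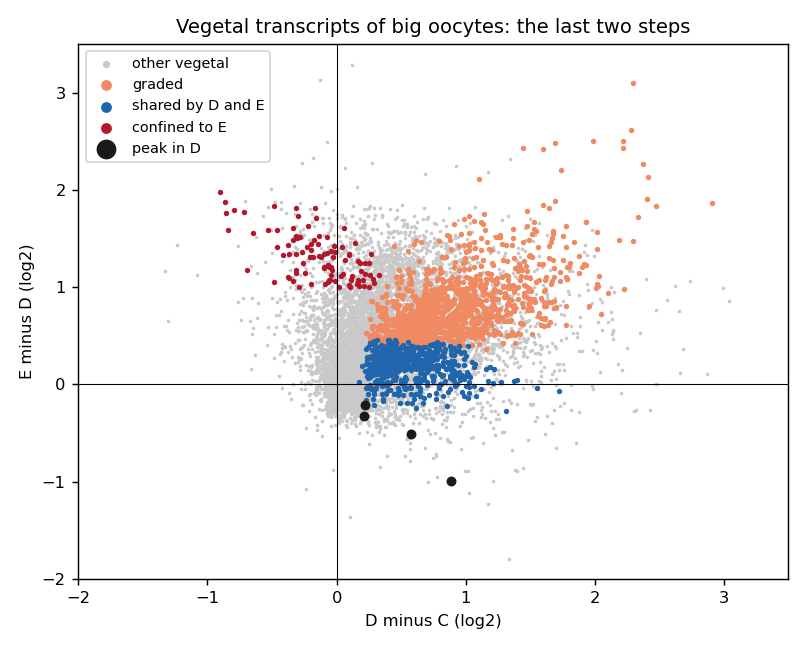
D minus C (x axis, log2) against E minus D (y axis, log2) for 8899 vegetal transcripts of big oocytes, 1 point each, with 7 beyond the axes. Graded transcripts fill the upper right, the 99 transcripts confined to E lie above 1 on the y axis close to or left of 0, those shared by D and E form a band between -0.32 and 0.46 on the y axis, and 4 points below 0 peak in D; transcripts shared and graded are drawn as shared.

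The class confined to E was small. It had 99 members, 1.11% of the vegetal transcripts, with a median scaled total of 126, while 1104 vegetal transcripts were at least 2-fold higher in E than in D past the threshold. Of those 1104, 237 had already risen from C to D, where 1347 of all 3349 vegetal transcripts higher in E had. Of all 8906 vegetal transcripts, 1347 (15.1%) rose from C to D with a rise to E and 753 (8.45%) with no call to E. Another 768 of the 1104 had no call from C to D but an interval too wide for the class. For most of the 1104 the level in D relative to C was therefore not resolved with these libraries. The median member was 2.47-fold higher in E than in D, and 98 of 99 were higher in E in all 3 oocytes. Median shares of the scaled total were 14.9% in A, 11.8% in B, 17.0% in C, 15.9% in D and 40.1% in E, and the largest share of E was 52.6%. Transcripts of this class were therefore not absent from the other sections, but the rule for the class partly sets this. A narrow interval of D minus C needs counts in C and D. Transcripts nearly restricted to E therefore tend to miss the class. Among the 2001 vegetal transcripts higher in E with no call from C to D, the largest share of E was 74.9%. The median D minus C of the class was -0.10, and a low value of D by error raises E minus D while it lowers D minus C, which favours entry into this class.

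TRINITY_DN6803_c0_g1_i1_2 is an example of the class called confined to E, with 44.8% of its scaled total in E. Its normalised counts were 46.3, 79.8 and 50.2 in D of oocytes 1, 2 and 3 and 165.0, 190.1 and 133.0 in E, without overlap. In C it had 40.5, 78.0 and 43.8, nearly the values of D in each oocyte. E minus D was 1.45 ± 0.22 (SE, adjusted p = 0.000149) and D minus C 0.15 ± 0.25 (SE, adjusted p = 0.858). TRINITY_DN48102_c0_g1_i1_2 had 24.9, 40.6 and 20.8 normalised counts in D and 99.5, 106.6 and 54.8 in E (E minus D 1.51 ± 0.32, SE, adjusted p = 0.00361). The E value of oocyte 3 was well below those of the other oocytes but above every D value.

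Graded transcripts were more numerous and more abundant than confined ones, but the entry rules of these classes are unlike. The graded class has no minimum fold, and its lowest E minus D was 0.17. With any fold allowed, the confined class had 939 members. Small folds pass the threshold more readily at high counts, and the part of this in the totals was not tested. The 1347 members had a median scaled total of 825, rose a median 1.72-fold from C to D and 1.59-fold from D to E, and had median shares of 9.65%, 9.66%, 14.8%, 24.7% and 41.0% in A to E. dnd1 and both transcripts with the largest rise belong here. Of 577 vegetal transcripts with more than 50% of their scaled total in E, 242 were graded, 228 rose from D to E with no call from C to D, and 4 were in the class confined to E. Of the 28 vegetal transcripts at least 4-fold higher in E than in D, 12 had risen from C to D past the threshold. For all 3349 vegetal transcripts higher in E this number was 1347.

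Graded transcripts made up 13.3%, 15.2% and 13.3% of all counts of section D in oocytes 1, 2 and 3 and 18.9%, 20.8% and 19.6% of those of section E. Their share of section A was 5.89%, 6.15% and 5.92%. The D and E values did not overlap, and the rise was found in each oocyte, as the choice of members sets. For the class confined to E the shares were 0.0614%, 0.0841% and 0.0676% of the counts in D and 0.158%, 0.169% and 0.127% in E, which is a small part of the RNA of the section.

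Transcripts shared by D and E numbered 563 (6.32% of the vegetal transcripts) and had a median scaled total of 1161. They rose a median 1.43-fold from C to D, with a median 1.15-fold from D to E, and their median shares were 25.2% in D and 29.1% in E, against 17.8% in C. Among them 480 had their highest fitted level in E and 81 in D. For 191 the small rise to E still passed the threshold, so that these are graded as well, and 370 had no call between D and E. They took up 5.14%, 6.08% and 5.78% of the counts of D and 5.73%, 6.33% and 6.34% of those of E in oocytes 1, 2 and 3.

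The steepest rise from C to D in this class was that of TRINITY_DN45105_c1_g1_i4_1. It had 53.1, 118.7 and 98.1 normalised counts in C, 182.9, 272.1 and 215.5 in D and 192.3, 241.6 and 240.5 in E. D and E overlapped, with E higher in oocytes 1 and 3 and lower in oocyte 2, and both lay above C throughout. D minus C was 1.40 ± 0.20 (SE, adjusted p = 8.73e-05), and E minus D was 0.04 ± 0.17 with a 90% interval of -0.26 to 0.34. TRINITY_DN48406_c0_g1_i2_1 followed, with 92.6, 100.1 and 73.5 normalised counts in D and 69.5, 71.1 and 77.2 in E. Its D minus C was 1.31 ± 0.19 (SE, adjusted p = 2.51e-05) and its E minus D -0.28 ± 0.17 (90% interval -0.57 to 0.02).

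**Figure D4:**
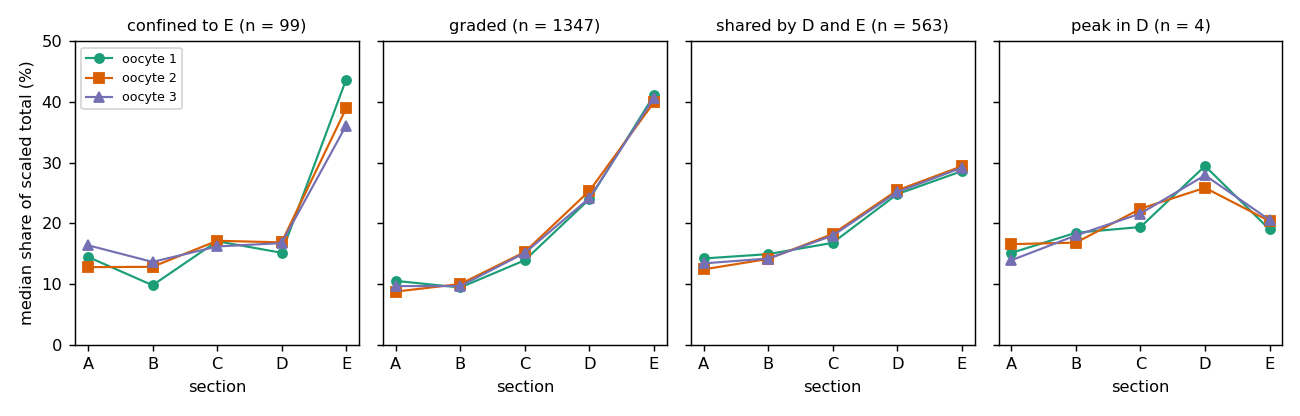
Median share of the scaled total in percent (y axis, 0 to 50) by section (x axis) for the 4 classes of vegetal transcripts, each line being 1 big oocyte. In the class confined to E the median is 9.8% to 17.1% from A to D and 36.1% to 43.7% in E, in the graded class it climbs from C through D to E, in the shared class D and E are close, and the 4 transcripts with a peak in D have their highest median there.

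A peak in D that passed the threshold on both sides was rare. Of the 17484 differentially localized transcripts (DLTs, F test over the 5 sections past the threshold), 7209 had their highest fitted level in E and 1275 in D. E lay above D past the threshold for 3747 of the former, but among the latter D lay above E for 250, above C for 128, above both for 7 and above neither for 904. So a highest level in D was seldom separated from both neighbours. The 7 included 4 vegetal transcripts, and as a comparison 24 transcripts had D below both C and E past the threshold.

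Among the vegetal transcripts with a peak in D and a scaled total of at least 200, the one with the largest smaller step to its neighbours was TRINITY_DN46797_c0_g2_i1_1, with 53.6, 52.4 and 62.6 normalised counts in C, 89.1, 69.0 and 93.1 in D and 60.0, 44.4 and 66.8 in E. D was the highest of the 3 sections in every oocyte, and the D values lay above all E values. D minus C was 0.58 ± 0.18 (SE, adjusted p = 0.0567) and E minus D was -0.51 ± 0.18 (SE, adjusted p = 0.0645). Neither call was secure: leaving out oocyte 1, 2 or 3 gave an adjusted p of 0.191, 0.145 or 0.222 for E minus D. TRINITY_DN50462_c0_g1_i5_1 had 1125, 1396 and 1369 normalised counts in C, 1545, 1396 and 1558 in D and 1130, 1197 and 1265 in E. Its fall from D to E was 1.25-fold (E minus D -0.32 ± 0.07, SE, adjusted p = 0.0035), while the rise from C to D was absent in oocyte 2 and close to the threshold (adjusted p = 0.0884, and 0.72 without oocyte 1). TRINITY_DN50462_c0_g1_i5_1 also met the definition of the shared class, and 2 of the 4 vegetal transcripts with a peak in D were in both classes.

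Transcripts higher in D than in E were led by animal transcripts. TRINITY_GG_82251_c3_g2_i1_1 had 9.50, 5.67 and 7.35 normalised counts in D and 0.00, 1.78 and 1.04 in E, at the end of a decline from 290.3 to 379.1 in section A. The 26 counts in D and 3 in E give a ratio of D to E of 7.37 (95% counting interval 2.26 to 38.1), and the fitted call (E minus D -2.72 ± 0.95, SE, adjusted p = 0.0111) was lost without oocyte 1 (adjusted p = 0.103). TRINITY_DN47347_c0_g4_i1_1, also animal by its gradient, which includes its low E, was spread more widely. Its levels were 47.5, 36.4 and 57.6 normalised counts in D and 15.0, 10.7 and 21.9 in E, after values of 36.1 to 85.5 in A, B and C. Its mean level was 66.7, 68.0, 52.9 and 47.1 normalised counts in A, B, C and D, and the transcript was 2.68-fold lower in E than in D (E minus D -1.42 ± 0.26, SE, adjusted p = 0.000219).

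Contigs of the same assembled gene were compared by their calls. Among 1268 assembled genes with at least 2 contigs tested, 311 had a contig higher in E, 126 a contig higher in D and 5 had contigs in both directions. All contigs were higher in E for 75 of the 311. Over all transcripts tested 12.7% were higher in E and 5.58% higher in D. Those are shares of single transcripts, whereas a gene counts here when any of its contigs is called. The 1268 genes held 2624 contigs, so the gene counts cannot be set directly against these shares and show no excess. No count of opposite calls is given for unrelated contigs. In 22 genes a graded and a shared call both occurred, but a contig that is in both classes meets this rule alone. Over all transcripts 191 were in both classes, so the 22 do not show contigs of different classes. A confined and a shared contig occurred together in 0 genes, a count without a test. Only 8 confined contigs lay in the 1268 genes, and 563 of all 32291 transcripts were shared, so this 0 says little. Closely related contigs share reads, which the authors' program divides by estimate, so such counts are uncertain.

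The same classes were followed in the D and E libraries of small oocytes, which had no part in their definition. In small oocytes 1305 of 30277 transcripts (4.31%) were higher in E and 214 (0.707%) higher in D, while from C to D 273 (0.902%) rose and 175 (0.578%) fell. Of the class confined to E, 91 were tested there and 20 (22.0%) were higher in E. In the graded class 476 of 1327 (35.9%) were higher in E and 2 higher in D, and in the shared class 112 of 562 (19.9%) and 1. The background over all 29225 transcripts tested in both stages was 4.38% higher in E, and that of all vegetal transcripts 14.5% (1151 of 7911). Transcripts with a rise from D to E and no call from C to D were at 19.4%, close to the confined and the shared class. The median E minus D in small oocytes was 0.50 for the class confined to E, 0.26 for the graded class, 0.10 for the shared class and 0.00 for all transcripts, the same order as in big oocytes (1.31, 0.67, 0.20 and 0.03). For the class confined to E this order does not show that E was the highest section of small oocytes. Its median shares in small oocytes 5, 6 and 8 were 17.3%, 15.0% and 15.6% in D. In E they were 22.5%, 18.1% and 23.6%, and in A 21.9%, 28.9% and 23.7%. The 152 vegetal transcripts higher in D in big oocytes that were tested in small ones had a median E minus D there of -0.04.

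**Figure D5:**
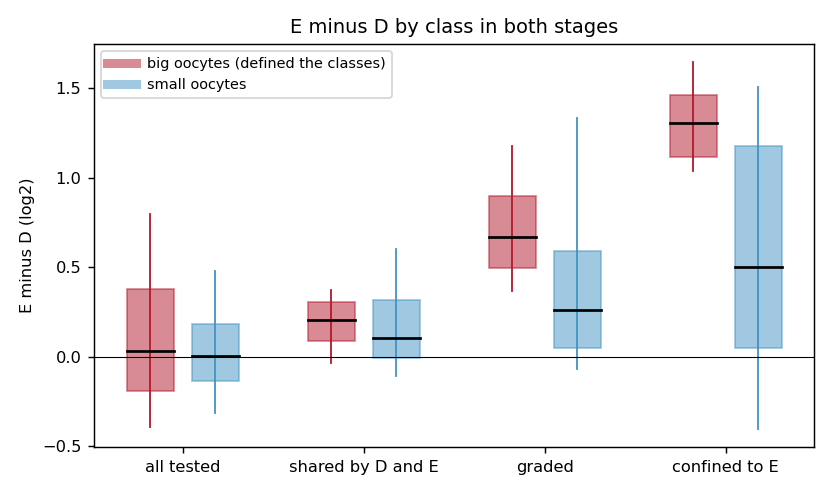
E minus D (y axis, log2) in big oocytes, whose values defined the classes, and in small oocytes, for all tested transcripts and 3 classes of vegetal transcripts. Boxes span the quartiles with the median as a line, and whiskers the 10th to 90th percentile over transcripts; medians in small oocytes are 0.00, 0.10, 0.26 and 0.50 from left to right.

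Several of the named transcripts rose from D to E in small oocytes too. dnd1 had 664.7, 528.9, 635.6 and 613.3 normalised counts in D of small oocytes 5, 6, 7 and 8 and 962.2, 734.6, 995.3 and 862.5 in E, with an E minus D of 0.53 ± 0.06 (SE, edgeR adjusted p = 3.53e-07). TRINITY_DN54217_c2_g1_i3_1 had 39.9, 21.5, 47.8 and 24.6 in D and 341.8, 166.1, 701.7 and 319.9 in E (E minus D 3.43 ± 0.16, SE, adjusted p = 2.59e-17). TRINITY_DN6803_c0_g1_i1_2 had 15.7, 10.3, 9.4 and 17.9 in D and 37.1, 29.6, 27.4 and 41.2 in E (E minus D 1.29 ± 0.24, SE, adjusted p = 0.000472). Its mean level in small oocytes was 48.7, 29.3, 36.4, 13.3 and 33.8 normalised counts in A to E. There D was the lowest section, and E was not above A or C. In each of these 3 transcripts the E values of small oocytes lay above all D values, and oocyte 6 had the lowest or next to lowest E value. By contrast, TRINITY_DN45105_c1_g1_i4_1, shared in big oocytes, had 72.4, 78.1, 92.3 and 65.1 normalised counts in D and 137.3, 83.5, 146.8 and 90.3 in E of small oocytes 5, 6, 7 and 8 (E minus D 0.54 ± 0.14, SE, adjusted p = 0.0159), and the difference between the stages did not pass the test (big minus small -0.53 ± 0.33, SE, adjusted p = 0.665).

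The difference of the step between stages was tested directly. Of 33343 transcripts tested for the interaction of stage and section over all libraries, 391 (1.17%) rose more from D to E in big than in small oocytes and 87 (0.261%) rose less. This fit, like that of the study, ignores which sections share an oocyte, and with a replicate block the counts were 699 and 212. In the fit without the block, 10 of the 99 transcripts confined to E (10.1%) rose more in big oocytes. So did 182 of the 1347 graded ones (13.5%), with 8 in the other direction. Of the 563 shared ones 11 (1.95%) rose more and 15 rose less. The big oocytes enter both this test and the definition of the classes, so these shares describe the classes only. For dnd1 the difference was 0.35 ± 0.26 (SE, adjusted p = 0.742), which does not show that its step is alike in both stages.

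The animal side of the confined class was also examined, since a transcript may be high at both poles. From A to B, 13 of 99 (13.1%) fell past the threshold, where 11.2% of all transcripts and 5.39% of the vegetal ones fell. The share that fell thus lay near that of all transcripts. A rise was called for 4 of 99, where 1982 of all 32291 transcripts (6.14%) and 1164 of the 8906 vegetal ones rose. In small oocytes 8 of 91 (8.79%) fell from A to B, against 4.11% of all and 4.96% of the vegetal transcripts tested in both stages. The named members TRINITY_DN6803_c0_g1_i1_2 and TRINITY_DN48102_c0_g1_i1_2 had their highest mean level of small oocytes in A, 48.7 and 196.3 normalised counts. In E their means were 33.8 and 140.9. The median share of section A of the class in small oocytes 5, 6 and 8 was 21.9%, 28.9% and 23.7%, next to 22.5%, 18.1% and 23.6% in E, whereas in big oocytes A held 14.5%, 12.8% and 16.4% and E held 43.7%, 39.0% and 36.1% in oocytes 1, 2 and 3. The class was chosen in big oocytes for high E and for D and E above A and B, so the low A and high E there follow from the choice of members.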

How the data were processed

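The 6 D and E libraries of big oocytes 1, 2 and 3 were analysed with the other 29 libraries of the series as the fits required. After trimming (Trimmomatic) and the removal of reads from mitochondrial and ribosomal RNA, the authors quantified an A. ruthenus assembly with kallisto 0.43.1. What they deposited are estimated counts per transcript, here already whole numbers. Normalized tables and tables of totals per oocyte were not used here. 0 of 49027 identifiers matched the RefSeq table, so lists of germ plasm and follicle cell genes could not be applied, and the 3 marker names were taken from the primers of the study.

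Counts of big oocytes were fitted with the robust quasi-likelihood test of edgeR 4.0.16 (R 4.3.3) with median-of-ratios scaling and terms for section and oocyte (the block). Transcripts entered with a scaled total over 20, summed over 5 sections and averaged over complete oocytes, and the threshold was an adjusted p (Benjamini-Hochberg) of 0.1, as in the study. SEs and intervals of log2 differences came from the same fit. Small oocytes were fitted alike, and the interaction of stage and section was fitted without the block, as in the study. The oocyte number pairs D and E because they come from 1 cell: deviations from the section means correlated at 0.349, 0.26 and 0.144 within oocytes 1, 2 and 3 and at -0.281 to 0.0209 between oocytes. Deviations of the oocytes from a section mean sum to 0. Positive values within oocytes therefore go with negative ones between them, and the gap is partly set by this. The test of E minus D was run on simulated data with the same spread for all transcripts and no differences between oocytes. That simulation did not cover the block, the intervals of D minus C or the classes. DESeq2 1.42.0 served as an alternative, and counting intervals and limits cover counting error only.

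The members, classes and lists were chosen with earlier results of these data known. Named transcripts are the 3 markers and, for each comparison or class, at most 2 identifiers with the largest change among those past the threshold with a scaled total of at least 200 and, for E minus D, the same direction in every oocyte. Figures were drawn with matplotlib, and thinning and the sign-flip test used numpy.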

Additional observations from a re-analysis of the deposited data

Results flagged for a closer look

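For 4 transcripts, named as the largest differences in each direction, the step from D to E differed between big and small oocytes by the test of the interaction (edgeR quasi-likelihood test, adjusted p below 0.1, no oocyte block). TRINITY_DN44998_c0_g1_i1_1 rose less in big oocytes (big minus small -1.91 ± 0.24, SE, adjusted p = 5.15e-05, range over alternatives 2.31e-10 to 0.00236). It had 235.2, 256.5 and 246.1 normalised counts in D and 211.4, 207.8 and 259.3 in E of big oocytes, without a difference past the threshold, and 94.9, 73.8, 109.3 and 80.4 in D and 336.3, 192.2, 505.1 and 272.6 in E of small oocytes 5, 6, 7 and 8. It was thus shared by D and E in big oocytes and concentrated in E in small ones.

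TRINITY_DN54828_c0_g1_i6_1 rose more in big oocytes (1.79 ± 0.40, SE, adjusted p = 0.0268). Its normalised counts were 1086, 1656 and 1178 in D and 3314, 4228 and 2222 in E of big oocytes, and 338.0, 407.8, 379.3 and 224.6 in D and 193.5, 291.9, 226.4 and 235.8 in E of small oocytes. TRINITY_GG_52360_c0_g1_i1_1 behaved alike (1.85 ± 0.48, SE, adjusted p = 0.0657), with 217.3, 344.3 and 232.7 in D and 688.6, 865.1 and 433.6 in E of big oocytes. The calls of both were lost without oocyte 1 (adjusted p = 0.112 and 0.195) and without oocyte 5 (0.123 and 0.182), and that of TRINITY_GG_52360_c0_g1_i1_1 also without oocyte 3, 6, 7 or 8 (0.102 to 0.202).

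The difference of TRINITY_DN49717_c0_g1_i1_1 (-2.35 ± 0.63, SE, adjusted p = 0.0858) rests on 1 library. Section D of oocyte 1 held 2143 normalised counts, against 238.1 and 253.5 in D of oocytes 2 and 3 and 204.5 to 312.5 over all other libraries of big oocytes. Without oocyte 1 the difference was -0.48 (adjusted p = 0.786), and with a replicate block it was -2.01 (adjusted p = 0.122).

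Among 36 groups of 4 small-oocyte libraries (D and E, named transcripts and library totals), 0 had a sample apart from the others by Dixon's rule, where chance flags about 1 in 20. Groups of 3 were not tested.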

How the results depend on the processing

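No call of a named transcript turned to the other direction. Of 320 values of named transcripts under the alternatives, 281 stayed on their side of the threshold and 39 lost the call. Values near 0 and not past the threshold changed sign for exd2 (E minus D up to 0.22, without oocyte 1) and for TRINITY_DN45105_c1_g1_i4_1 (down to -0.07, with library totals). With library totals the balance of calls turned, with 3130 higher in E against 4114 in D, and 1715 higher in D than in C against 1996 in C. E minus D of dnd1 ranged from 0.81 to 1.03. Every alternative kept the calls for dnd1, both transcripts with the largest rise, both confined transcripts and TRINITY_DN47347_c0_g4_i1_1. Lost calls were those of the transcripts with a peak in D, TRINITY_GG_82251_c3_g2_i1_1 (also when thinned, adjusted p = 0.233) and 3 of the 4 stage differences, while that of TRINITY_DN44998_c0_g1_i1_1 was kept.

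Counts that moved by over 1.5 times were the following, and the cause was not tested. Transcripts higher in D (1802) numbered 2709 with TMM, 4114 with library totals, 1141 with no replicate block, 3298 with the D and E libraries alone, 1167 at an adjusted p of 0.05 and 944 with thinning. Over 2-fold higher in D (97) were 184 with library totals, 6 with a scaled total over 200, 46 with DESeq2, 62 with no replicate block, 152 with D and E alone and 39 at 0.05. Transcripts higher in E (4116) were 2643 with thinning, and over 2-fold (1340) 372 with a total over 200. Higher in C than in D (716) were 1996 with library totals, 420 with no replicate block, 427 at 0.05 and 377 with thinning, and higher in D than in C (2163) 1437 with thinning.

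Vegetal transcripts (8906) were 5169 with a total over 200. The class confined to E (99) had 23 members with a total over 200, 62 with DESeq2, 60 with no replicate block, 427 with a bound of 2-fold, 171 with vegetal defined by the F test and the highest level in D or E, 939 with any fold and 64 with thinning. The shared class (563) had 365 with no replicate block, 1448 with a bound of 2-fold and 293 with thinning. The graded class (1347) had 878 with no replicate block and 837 with thinning. A peak in D (4) was found for 1 with library totals, 8 with a total over 200, 1 with DESeq2, 0 with no replicate block, 0 at 0.05 and 7 with the other definition of vegetal. DESeq2 gave no adjusted p for 3757 transcripts.

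In small oocytes, higher in D (214) were 129 with no replicate block, 592 with library totals and 117 with DESeq2. For the stage difference, more E in big oocytes (391) was found for 699 with a replicate block and 246 with library totals, and less E (87) for 212 with a replicate block. The spread of E to D ratios over transcripts (0.469) was 0.405 with a mean of at least 50 counts. With at least 10 counts, 25 transcripts were in E and at 0 in D, and 16 the reverse.

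Without 1 oocyte at a time, transcripts higher in E numbered 2226 to 4102, higher in D 669 to 2038, over 2-fold 898 to 1341 and 56 to 111, higher in D than in C 1274 to 2150 and higher in C 226 to 769. The confined class had 44 to 126 members, lowest without oocyte 1, the shared class 237 to 586 and the graded class 586 to 1320, both lowest without oocyte 3, a peak in D 0 to 9, and vegetal transcripts 7519 to 8899. In small oocytes 847 to 1271 were higher in E and 68 to 234 higher in D, lowest without oocyte 7. The stage difference was found for 170 to 401 (more E in big oocytes) and 23 to 88 (less). Thinning all big libraries to 1816470 counts was chosen after the data were seen. Wide intervals of D minus C kept 768 transcripts out of the confined class, and the parts of depth and of spread between oocytes in them were not tested.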
